A study of Mus with 3 samples.

Results

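The subject is a set of 6 genes, the inflammatory CC chemokines made by leukocytes (Ccl3, Ccl4, Ccl5, Ccl6 and Ccl9) and the receptor Ccr1, in single cells of mouse lung. The members were chosen by name, as the rows of the 3 count matrices that carry these symbols. All 6 were found among 27998 listed genes, and each had at least 20 UMIs (unique molecular identifiers, each marking 1 captured transcript) in each library. Single-cell RNA of whole lung from female mice aged 6 to 12 weeks was captured with the 10x 3′ v3 chemistry. There were 3 groups. The DJ-1 KO OVA mice lacked DJ-1 (gene Park7), an oxidative stress sensor, and had an ovalbumin challenge, a model of allergic airway disease. The WT OVA mice were wild type with the same challenge, and the WT PBS mice were wild type challenged with saline. The label of the WT PBS library is not uniform, since its title names ovalbumin and its treatment field names PBS, and the treatment field was followed. Every group is represented by a single library, made from 3 mice together. Differences between groups are therefore without replication and were not tested. No DJ-1 KO PBS library was analysed here.

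CC chemokines are small secreted proteins that bind G protein-coupled receptors on leukocytes and draw them along a gradient into tissue. Ccl3 and Ccl4, also known as macrophage inflammatory proteins 1-alpha and 1-beta, are made by activated macrophages, neutrophils and NK cells. Ccl5, or RANTES, is a product of NK cells and of memory and effector T cells. Ccl6 and Ccl9 are rodent chemokines of myeloid cells. Ccr1 is a receptor for Ccl3, Ccl5, Ccl6 and Ccl9, and Ccr3, the receptor of eosinophils, also binds Ccl5. In the RefSeq annotation of GRCm38.p6 the 5 ligand genes lie together on chromosome 11. Ccl5 spans chr11:83525778-83530518, Ccl9 chr11:83572917-83578636, Ccl6 chr11:83587886-83593087, Ccl3 chr11:83647843-83649378 and Ccl4 chr11:83648624-83664683. The annotated spans of Ccl3 and Ccl4 overlap, and whether the authors counted by strand is not given in the sources used here, so reads in the shared stretch may not be separable. Ccr1 lies at chr9:123962126-123968692.

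The libraries held 4666 barcodes with 17339386 UMIs in DJ-1 KO OVA, 6406 with 24438516 in WT OVA and 4556 with 26548669 in WT PBS. DJ-1 KO OVA and WT PBS shared 372 barcodes, against 5 shared by DJ-1 KO OVA and WT OVA and 6 by WT OVA and WT PBS, and of each pair shared with WT PBS the cell with fewer UMIs was left out. That left 4438, 5930 and 3850 cells in DJ-1 KO OVA, WT OVA and WT PBS, with medians of 1653, 2060.5 and 4084 UMIs per cell. Park7 stood at 20.8 CPM (counts per 1000000 UMIs of the summed cells) in DJ-1 KO OVA, 100.3 CPM in WT OVA and 136 CPM in WT PBS. Of the kept DJ-1 KO OVA cells, 6.89% carried a barcode that also occurred in WT PBS, and these cells held 38.6% of the UMIs. Among DJ-1 KO OVA cells they made up 26.3% of the alveolar macrophage-like cells and 61.6% of the UMIs of that class, and 0 of 300 NK cell-like and 0 of 214 neutrophil-like cells. Ratios with both cells of each shared barcode left out are therefore given beside the class ratios of alveolar macrophage-like cells, and beside the subcluster and list results of that class from the same clusters. Doublet calling removed 3 DJ-1 KO OVA, 162 WT OVA and 58 WT PBS barcodes, so few doublets were called in DJ-1 KO OVA.

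Clusters were formed without the 6 members. The alveolar macrophage-like cluster was led by Chil3, Mmp12 and Plet1, the NK cell-like cluster by Gzma, Klra8 and Klra4, and the main neutrophil-like cluster by S100a9, Irg1 and Csf3r. Csf3r, the G-CSF receptor, was found in 93.5%, 95.1% and 98.8% of neutrophil-like cells in DJ-1 KO OVA, WT OVA and WT PBS, and Ncr1, an activating NK receptor, in 30.7%, 39.0% and 68.7% of NK cell-like cells. Cluster 8 scored highest for the CD8 T cell list but stayed unnamed under the naming rule. Its leading genes held 0 markers of that list, and a name was withheld where they held more markers of another list. Among them were Klrc1, Gzmk, the member Ccl5, Fasl, Ly6c2 (on the classical monocyte list) and Cx3cr1 (on the interstitial macrophage list). The rule left the identity of the cluster open. Cd3e was found in 49.3% of cluster 8 cells in DJ-1 KO OVA, 53.8% in WT OVA and 77.7% in WT PBS. Cluster 10.0, led by Arhgef10l, F10 and Csf1r with a median of 903 UMIs per cell, scored highest for the non-classical monocyte list and also stayed unnamed. No eosinophil-like or basophil-like class was found, and the eosinophil peroxidase gene Epx had 0 UMIs in the alveolar macrophage-like, neutrophil-like, NK cell-like and monocyte classes of DJ-1 KO OVA. The median log2 ratio over all genes tested lay between -0.11 (alveolar macrophage-like cells, WT OVA over WT PBS) and 0.17 (cycling-like cells, DJ-1 KO OVA over WT OVA) in the classes compared here. Brackets hold 95% intervals, exact Poisson for CPM and exact binomial, conditional on the summed count, for their ratios. They cover counting error only. A gene was called higher or lower in a comparison where its ratio of CPM was at least 1.5 or at most the inverse of 1.5, the interval excluded 1 and both libraries together had at least 20 UMIs. Ratios within a class were read only from 50 cells upward in either library, and classes with 20 to 49 cells are given as levels.

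**Figure D1:**
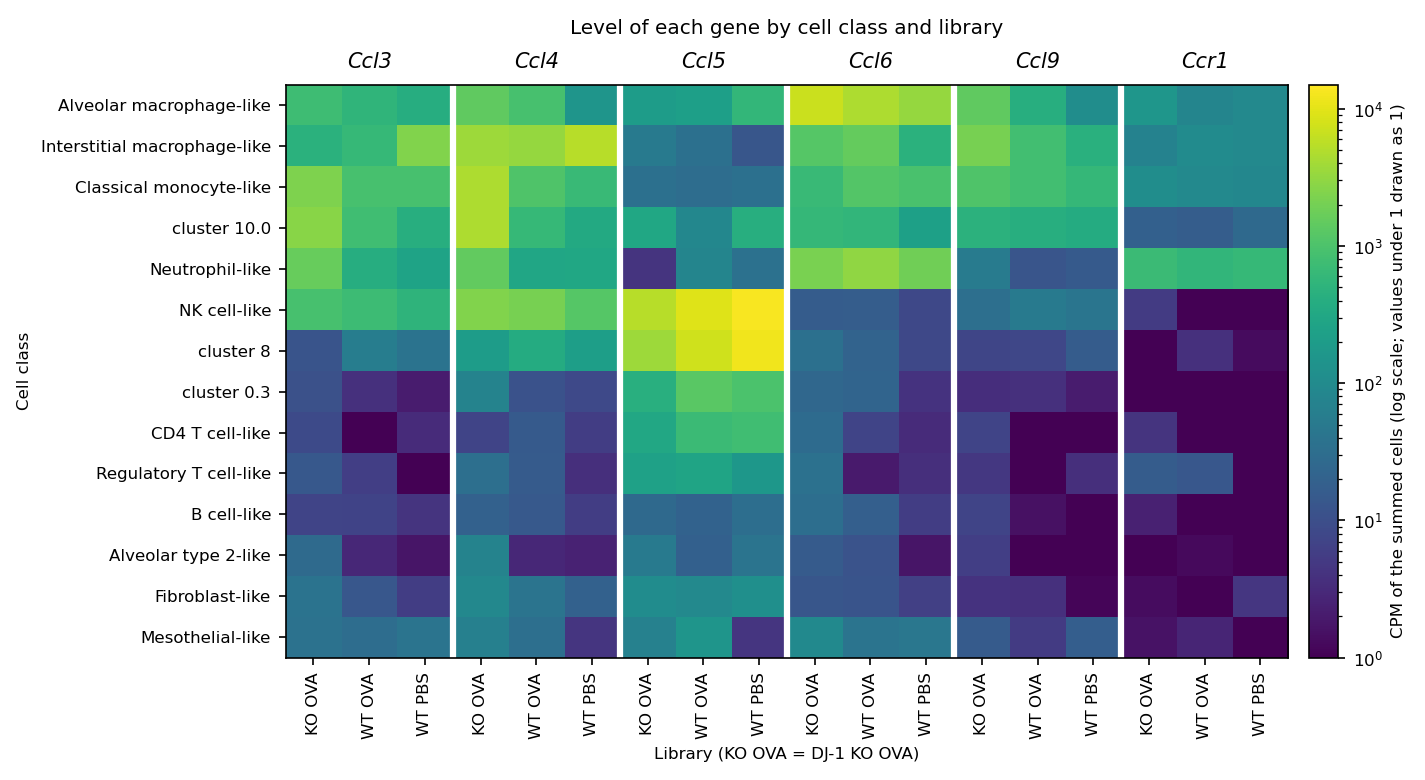
Level of each gene (colour, CPM of the summed cells on a log scale) in 14 cell classes or clusters (rows) and the 3 libraries (columns within each gene, DJ-1 KO OVA first). Ccl5 was highest in NK cell-like cells and cluster 8, Ccl6 in alveolar macrophage-like and neutrophil-like cells, and Ccr1 in neutrophil-like cells, in each library.

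Over all kept cells, Ccl9 and Ccl6 were highest in DJ-1 KO OVA and lowest in WT PBS, and Ccl5 ran the other way. Ccl9 stood at 238 CPM in DJ-1 KO OVA, 77.0 CPM in WT OVA and 47.9 CPM in WT PBS. Ccl6 stood at 1052, 600 and 350 CPM in DJ-1 KO OVA, WT OVA and WT PBS, and Ccl5 at 388, 826 and 1784 CPM. Ccl3 and Ccl4 lay closer together. Ccl4 stood at 443 CPM in DJ-1 KO OVA, 279 CPM in WT OVA and 240.4 CPM in WT PBS, and Ccl3 at 204, 141 and 159 CPM. Ccr1 stood at 36.1 CPM in DJ-1 KO OVA, 38.2 CPM in WT OVA and 62.7 CPM in WT PBS.

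Between DJ-1 KO OVA and WT OVA, 3 members were called higher and 1 lower in DJ-1 KO OVA, against a background of 10.7% of 14710 tested genes higher and 7.22% lower. The higher members were Ccl9 with a ratio of 3.09 [2.92, 3.27], Ccl6 with 1.76 [1.72, 1.80] and Ccl4 with 1.58 [1.53, 1.64], and the lower one was Ccl5 with 0.469 [0.456, 0.482]. Ccl3 had a ratio of 1.44 [1.38, 1.51] and Ccr1 0.945 [0.851, 1.05], both not called. In WT OVA over WT PBS, 2 members were called higher and 2 lower, against 8.36% of 14944 tested genes higher and 5.95% lower. Ccl6 had a ratio of 1.71 [1.67, 1.76] and Ccl9 1.61 [1.49, 1.73], while Ccl5 had 0.463 [0.455, 0.471] and Ccr1 0.610 [0.561, 0.664]. Ccl3 at 0.889 and Ccl4 at 1.16 were not called. Both comparisons use the WT OVA library, so their values are not independent of each other.

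The makeup of the libraries differed beside these totals. Alveolar macrophage-like cells were 262 of 4438 DJ-1 KO OVA cells (5.90%), 188 WT OVA cells (3.17%) and 59 WT PBS cells (1.53%), and held 13.9%, 8.50% and 4.32% of the UMIs. Neutrophil-like cells were 4.82%, 10.7% and 15.4% of cells in DJ-1 KO OVA, WT OVA and WT PBS, and NK cell-like cells 6.76%, 9.98% and 12.1%. Without the alveolar macrophage-like cells, the DJ-1 KO OVA over WT OVA ratio of Ccl6 was 0.376, turning its direction, that of Ccl9 was 0.973 and that of Ccl4 was 1.26. The higher Ccl6 and Ccl9 sums of DJ-1 KO OVA relative to WT OVA thus rested on this class. The WT OVA over WT PBS ratios were then 1.04 for Ccl6 and 1.01 for Ccl9. With each cell given the same weight, the DJ-1 KO OVA over WT OVA ratio was 0.868 for Ccl6 and 1.47 for Ccl4, and the WT OVA over WT PBS ratio was 1.40 for Ccl6 and 1.37 for Ccl9, none of them called. Deeper cells weigh more in a sum than in a mean over cells. After thinning, the ratio of Ccr1 in DJ-1 KO OVA over WT OVA was 0.600 and called lower. Without the neutrophil-like cells, Ccr1 had a ratio of 1.93 in DJ-1 KO OVA over WT OVA and 1.06 in WT OVA over WT PBS, so its difference between WT OVA and WT PBS lay with the neutrophil-like cells. With both cells of each shared barcode left out, Ccl6 had a ratio of 1.00 in DJ-1 KO OVA over WT OVA, and Ccl9 had 1.499 in WT OVA over WT PBS and missed the fold limit. Ccl3 passed it at 1.52 in DJ-1 KO OVA over WT OVA when the 796 lymphocyte progenitor-like cells of DJ-1 KO OVA were left out, and Ccl4 missed it at 1.48 when doublets were kept.

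**Figure D2:**
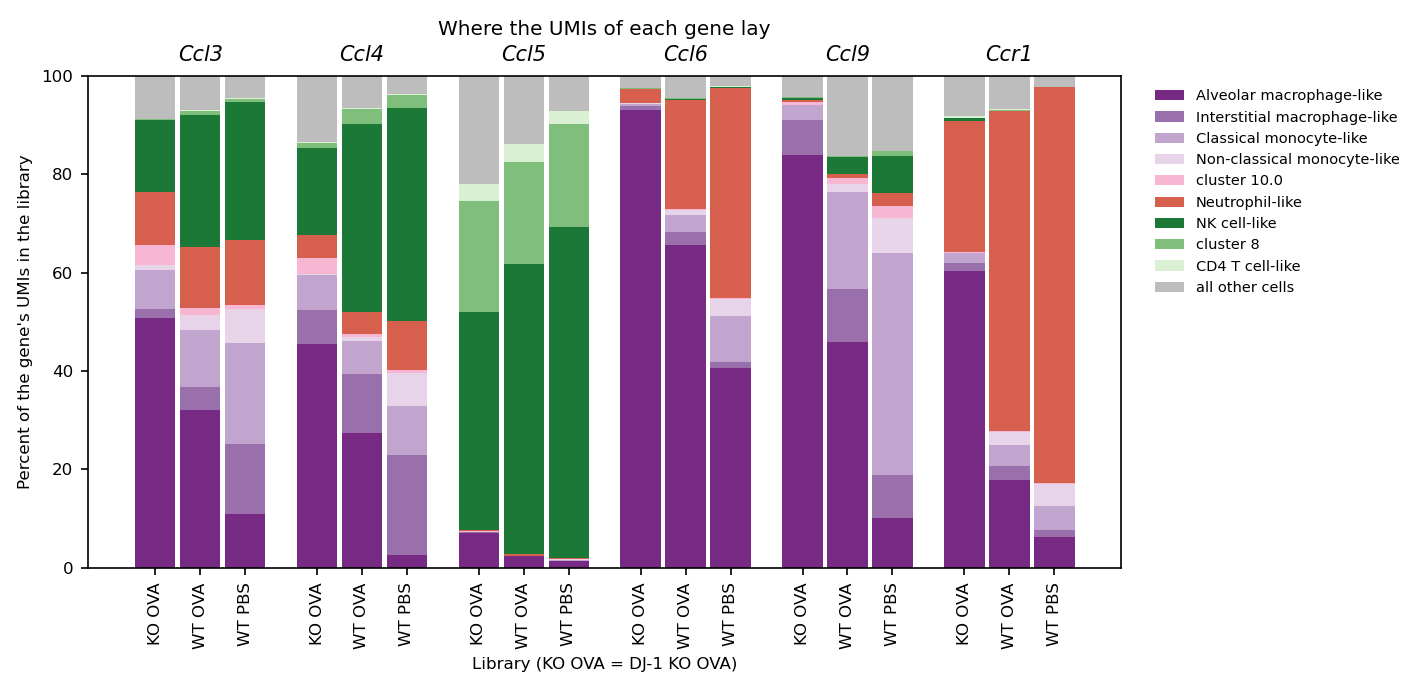
Percent of each gene's UMIs in a library that lay in each cell class (stacked bars, 100 percent per library), for the 6 genes and the 3 libraries. Alveolar macrophage-like cells held 93.1% of Ccl6 UMIs in DJ-1 KO OVA, 65.6% in WT OVA and 40.6% in WT PBS, and NK cell-like cells 44.5%, 59.0% and 67.4% of Ccl5 UMIs.

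Ccl3 and Ccl4 were found in macrophage-like, monocyte-like, neutrophil-like and NK cell-like cells. NK cell-like cells, cytotoxic lymphocytes that release both chemokines on activation, held 2393 CPM [2267, 2525] of Ccl4 in DJ-1 KO OVA, 2088 CPM [2006, 2172] in WT OVA and 1193 CPM [1147, 1240.1] in WT PBS. Ccl3 in the same cells stood at 907 CPM in DJ-1 KO OVA, 741 CPM in WT OVA and 512 CPM in WT PBS. In NK cell-like cells of WT OVA over WT PBS, Ccl4 was called higher at 1.75 [1.66, 1.85], where 6.78% of 8447 tested genes were higher. Ccl3 at 1.45 [1.32, 1.58] was not called over the whole class, though it was within both subclusters described below. In DJ-1 KO OVA over WT OVA neither Ccl3 nor Ccl4 was called, with ratios of 1.15 for Ccl4 and 1.22 for Ccl3. After thinning, Ccl3 passed the fold limit in WT OVA over WT PBS at 1.58. Ccl4 transcripts were found in 68.0%, 64.5% and 67.2% of NK cell-like cells in DJ-1 KO OVA, WT OVA and WT PBS, or 57.7%, 52.7% and 41.6% after each cell was thinned to 1000 UMIs. In B cell-like cells, which are not known as a source, Ccl4 was found in 2.42%, 1.52% and 1.90% of cells.

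Within the NK cell-like class both genes were higher in cells of a subcluster led by Cma1 and Gzmb than in one led by Klra4 and Klra8. Ccl4 stood at 4095 CPM in the Cma1 and Gzmb subcluster of DJ-1 KO OVA and 2045 CPM in the Klra4 and Klra8 subcluster. In WT OVA the 2 values were 3102 and 1708 CPM, and in WT PBS 1715 and 803 CPM. In cluster 8, Ccl4 stood at 201 CPM in DJ-1 KO OVA, 370.4 CPM in WT OVA and 217 CPM in WT PBS, and was called lower in DJ-1 KO OVA over WT OVA at 0.543 [0.414, 0.707] and higher in WT OVA over WT PBS at 1.71 [1.38, 2.12], where 7.22% of 6450 tested genes were higher. Among NK cell-like cells, the WT OVA over WT PBS ratio of Ccl4 was 1.81 in the Cma1 and Gzmb subcluster and 2.13 in the Klra4 and Klra8 subcluster.

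Neutrophil-like cells carried the largest Ccl3 and Ccl4 ratios between DJ-1 KO OVA and WT OVA among the neutrophil-like, NK cell-like and alveolar macrophage-like classes. Ccl3 stood at 1615 CPM [1456, 1785] in DJ-1 KO OVA, 397 CPM [359, 438] in WT OVA and 266 CPM [243, 289] in WT PBS. Ccl4 stood at 1496 CPM [1344, 1660] in DJ-1 KO OVA, 294 CPM [261, 329] in WT OVA and 307 CPM [283, 333] in WT PBS. The DJ-1 KO OVA library thus stood apart, while WT OVA and WT PBS lay close together for Ccl4. In DJ-1 KO OVA over WT OVA the ratio was 4.07 [3.53, 4.69] for Ccl3 and 5.10 [4.36, 5.97] for Ccl4, where 10% of 4241 tested genes were called higher in these cells. In WT OVA over WT PBS the ratio was 1.49 for Ccl3 and 0.955 for Ccl4, and neither was called, though Ccl3 passed the fold limit without the highest cell of each library (1.54).

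The neutrophil signal came from a minority of cells. Ccl4 was found in 22.0% of 214 DJ-1 KO OVA neutrophil-like cells, 11.8% of 636 in WT OVA and 15.3% of 594 cells in WT PBS. Its 353 UMIs in DJ-1 KO OVA lay to 89.0% in the top 10% of cells, and 4 cells held 50% of them. In WT OVA the top 10% of cells held 96.3% of 298 UMIs and in WT PBS 94.8% of 595 UMIs. Leaving out the single highest cell of each library, the DJ-1 KO OVA over WT OVA ratio of Ccl4 was 4.34 and that of Ccl3 3.72, and after thinning that of Ccl4 was 9.69. Ccl3 was found in 36.4%, 20.6% and 24.1% of neutrophil-like cells in DJ-1 KO OVA, WT OVA and WT PBS, or 38.1%, 16.8% and 13% after thinning, which kept 97 DJ-1 KO OVA, 566 WT OVA and 577 WT PBS cells. Markers of other sources were mixed in the DJ-1 KO OVA neutrophil-like cells. Nkg7, Ncr1, C1qa and Marco had 0 UMIs, while Gzma and Klrd1 had 2 UMIs each. Ccl24, a leading gene of alveolar macrophage-like cells, had 16 UMIs in these neutrophil-like cells and 0 in those of WT OVA and WT PBS. Chil3, an abundant alveolar macrophage transcript, was found in 48.6% of these cells and in 42.6% of B cell-like cells of the same library. In WT OVA it was found in 15.1% of neutrophil-like and 12.8% of B cell-like cells, and in WT PBS in 7.07% and 2.37%. Its part in the chemokine levels was not tested.

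The make-up of the class also differed between libraries. A subcluster led by Il1r2, Irg1 and C5ar1 held 191 of 214 neutrophil-like cells in DJ-1 KO OVA, 432 of 636 in WT OVA and 117 of 594 cells in WT PBS, and one led by S100a8, S100a9 and Retnlg held 20, 182 and 455. Within the Il1r2 subcluster the DJ-1 KO OVA over WT OVA ratio was 3.72 for Ccl3 and 6.97 for Ccl4, so both stayed called there. Ccl3 was also called within it at 1.60 in WT OVA over WT PBS.

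**Figure D3:**
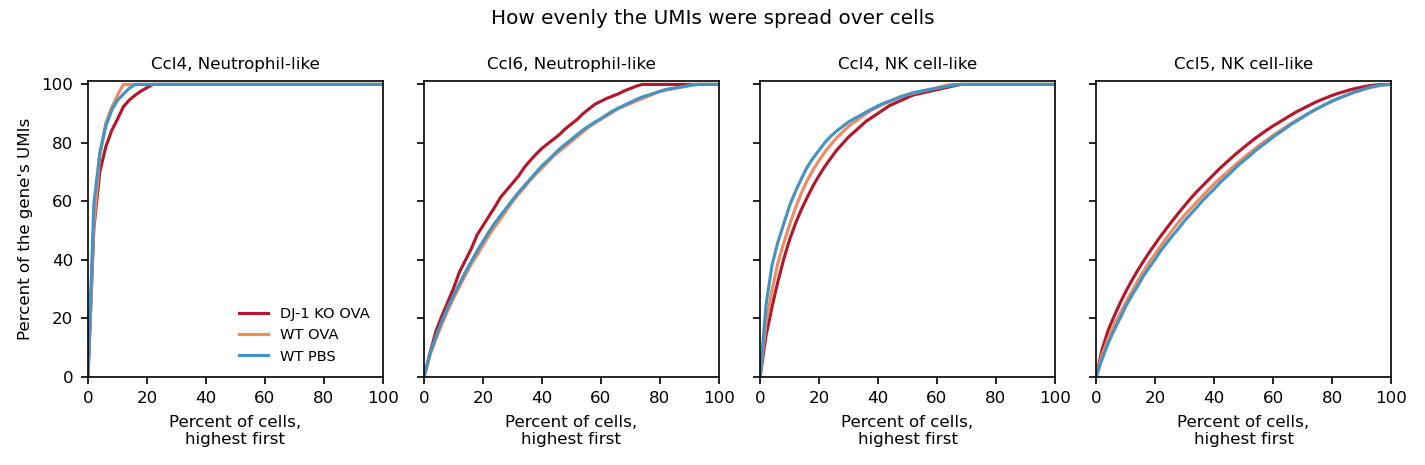
Cumulative percent of a gene's UMIs (vertical axis) held by the cells of a class ranked from the highest (horizontal axis, percent of cells), 1 line per library. Ccl4 in neutrophil-like cells lay in few cells, with 89.0% of UMIs in the top 10% of DJ-1 KO OVA cells, while the same share of NK cell-like cells held 29.1% of Ccl5 UMIs.

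The alveolar macrophage-like class, named after phagocytes of the airspace, held subclusters whose shares differed between libraries, as described below. Over the whole class Ccl4 was called higher in both comparisons. It stood at 1454 CPM [1405, 1503] in DJ-1 KO OVA, 898 CPM [856, 941] in WT OVA and 148 CPM [126, 173] in WT PBS. The ratio of DJ-1 KO OVA over WT OVA was 1.62 [1.53, 1.72], where 9.05% of 9209 tested genes were higher and 12.7% lower, and that of WT OVA over WT PBS was 6.07 [5.15, 7.19], where 5.94% of 8613 tested genes were higher and 10.2% lower. Ccl3 stood at 746 CPM in DJ-1 KO OVA, 534 CPM in WT OVA and 401 CPM in WT PBS, and was not called, with ratios of 1.40 [1.29, 1.51] in DJ-1 KO OVA over WT OVA and 1.33 [1.19, 1.498] in WT OVA over WT PBS. In WT PBS 1 cell held 119 of the 422 Ccl3 UMIs, and without the highest cell of each library Ccl3 was called higher in WT OVA over WT PBS at 1.76. After thinning, its DJ-1 KO OVA over WT OVA ratio was 0.795, in the other direction and not called. The share of cells with Ccl4 was 74.4% in DJ-1 KO OVA, 50% in WT OVA and 20.3% in WT PBS, or 54.7%, 29.3% and 5.26% after thinning. In WT PBS the class had 59 cells and 156 Ccl4 UMIs, of which 55 lay in 1 cell. Leaving out both cells of shared barcodes gave Ccl4 ratios of 2.60 in DJ-1 KO OVA over WT OVA and 9.24 in WT OVA over WT PBS, and Ccl3 ratios of 1.03 and 1.28.

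Classical monocyte-like and interstitial macrophage-like cells and cluster 10.0 were few, and their Ccl3 and Ccl4 levels are given with the number of cells. Classical monocyte-like cells, the blood-derived precursors of macrophages, had Ccl4 at 4579 CPM in DJ-1 KO OVA (29 cells), 1051 CPM in WT OVA (96 cells) and 679 CPM in WT PBS (99 cells). Ccl3 stood at 2380, 907 and 918 CPM in the classical monocyte-like cells of DJ-1 KO OVA, WT OVA and WT PBS. In WT OVA over WT PBS, Ccl4 was called higher there at 1.55 [1.36, 1.76], where 4.37% of 6038 tested genes were higher, though it was 1.48 and not called without the single highest cell of each library and 1.40 with clusters at resolution 2. Cluster 10.0 had Ccl4 at 4546 CPM in DJ-1 KO OVA, 639 CPM in WT OVA and 343 CPM in WT PBS, and its DJ-1 KO OVA over WT OVA ratio was 7.12 [5.02, 10.4], where 7.85% of 866 tested genes were higher. Ccl3 in that cluster had a ratio of 3.48 [2.47, 4.98]. In DJ-1 KO OVA 1 of its 53 cells held 100 of the 237 Ccl4 UMIs and 1 cell held 55 of the 141 Ccl3 UMIs. Without the highest cell of each library, Ccl4 stood at 2752 CPM in DJ-1 KO OVA and 492 CPM in WT OVA, a ratio of 5.59 [3.70, 8.72], and the Ccl3 ratio was 2.66 [1.79, 4.02]. Interstitial macrophage-like cells, led by the complement genes C1qa, C1qb and C1qc, stood in the opposite order for Ccl3, with 471 CPM in DJ-1 KO OVA, 637 CPM in WT OVA and 2457 CPM in WT PBS. Their Ccl4 stood at 3706, 3320 and 5245 CPM in 38 DJ-1 KO OVA, 46 WT OVA and 30 WT PBS cells, among the highest Ccl4 levels in each library.

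**Figure D4:**
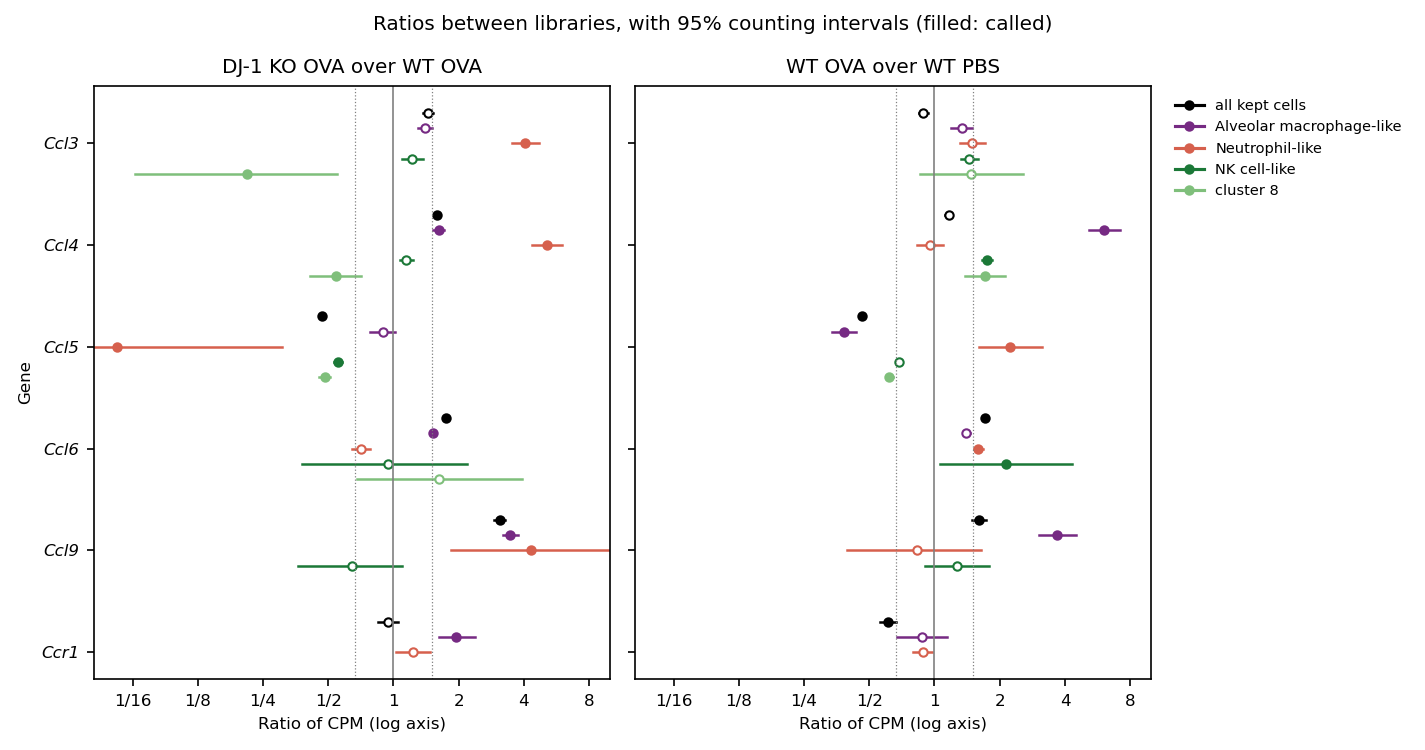
Ratio of CPM between libraries (horizontal log axis, DJ-1 KO OVA over WT OVA on the left and WT OVA over WT PBS on the right) for each gene over all kept cells and in 4 classes, with 95% counting intervals. Filled points were called, dotted lines mark 1.5-fold, and the intervals of Ccl5 and Ccl9 in neutrophil-like cells run past the left panel's edges. Ccl3 and Ccl4 in neutrophil-like cells lie at 4.07 and 5.10 in the left panel.

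Ccl5 was a product of lymphocytes, and its level fell in each of its main sources in DJ-1 KO OVA relative to WT OVA. In NK cell-like cells it stood at 5274 CPM [5085, 5468] in DJ-1 KO OVA, 9531 CPM [9355, 9710] in WT OVA and 13823 CPM [13665, 13982] in WT PBS. In cluster 8 it stood at 3646 CPM [3463, 3836] in DJ-1 KO OVA, 7557 CPM [7322, 7797] in WT OVA and 12244 CPM [11994, 12498] in WT PBS. The counting intervals of the 3 libraries did not overlap in either population. They hold no spread between mice, and the share of all genes with separate intervals was not counted. The ratio of DJ-1 KO OVA over WT OVA was 0.553 [0.531, 0.576] in NK cell-like cells, where 3.72% of 7267 tested genes were lower. In cluster 8 it was 0.482 [0.454, 0.512], where 3.53% of 5746 tested genes were lower. In WT OVA over WT PBS, cluster 8 was called lower at 0.617 [0.594, 0.641], with 3.77% of 6450 tested genes lower, and NK cell-like cells at 0.690 [0.675, 0.705] missed the fold limit, which they passed with median-of-ratios scaling (0.656) and after thinning (0.661).

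Nearly all NK cell-like cells had a Ccl5 transcript in each library. It was found in 96.7% of 300 NK cell-like cells in DJ-1 KO OVA, 99.5% of 592 in WT OVA and 99.6% of 466 cells in WT PBS, while the median was 8, 16 and 54.5 Ccl5 UMIs per cell, at median depths of 1608, 1768.5 and 4134 UMIs per cell. After thinning to 1000 UMIs the shares were 92.6%, 98.6% and 98.9%. In cluster 8 the shares were 86.2%, 94.4% and 96.4% in DJ-1 KO OVA, WT OVA and WT PBS, with medians of 6, 13 and 54 Ccl5 UMIs per cell at median depths of 1817, 1856 and 4534 UMIs per cell. The libraries differ in depth, so these medians are not compared between them. The background in B cell-like cells was 26.8 CPM in DJ-1 KO OVA, 20.6 CPM in WT OVA and 32.4 CPM in WT PBS. Both NK subclusters showed it, with DJ-1 KO OVA over WT OVA ratios of 0.637 [0.591, 0.686] in that led by Cma1 and Gzmb and 0.551 [0.523, 0.580] in that led by Klra4 and Klra8. No NK cell-like cell of DJ-1 KO OVA carried a shared barcode.

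Other effector genes of the NK cell-like cells did not show a difference of this size. Of 10 cytotoxic effector genes, 9 could be tested in DJ-1 KO OVA over WT OVA, 0 were called in either direction, where 5.55% of all tested genes were higher and 3.72% lower, and their median log2 ratio was -0.09 beside 0.07 over all genes tested. Gzma, a granule protease, stood at 6888 CPM in DJ-1 KO OVA, 6788 CPM in WT OVA and 8301 CPM in WT PBS. Nkg7, a granule membrane protein, stood at 1524, 2152 and 2825 CPM, with a DJ-1 KO OVA over WT OVA ratio of 0.708 [0.654, 0.766]. In cluster 8, 2 of 9 cytotoxic genes were lower in the same comparison, where 3.53% of all tested genes were lower and 7.41% higher, and 0 were higher. Between WT OVA and WT PBS, 3 of 10 were higher in WT OVA and 0 lower, beside 7.22% of all tested genes higher.

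Smaller Ccl5 sources were T cells and a few single cells of other classes. CD4 T cell-like cells had 318 CPM in DJ-1 KO OVA, 710.0 CPM in WT OVA and 793 CPM in WT PBS, with a DJ-1 KO OVA over WT OVA ratio of 0.448 [0.384, 0.522], where 2.91% of 7210 tested genes were lower. That ratio was 0.670 and not called when the members were allowed among the clustering genes. Cycling-like cells had a ratio of 0.369 [0.323, 0.421], where 7.29% of 7869 tested genes were lower. That class was not alike in makeup between the libraries. A cluster with the lymphocyte progenitor list second gave 137 of its 223 cells in DJ-1 KO OVA and 3 of 61 in WT OVA. Its ratio therefore compares differing mixes of cells. Alveolar macrophage-like cells listed 199.8 CPM in DJ-1 KO OVA, 224 CPM in WT OVA and 587 CPM in WT PBS. There 131 of 473 Ccl5 UMIs in DJ-1 KO OVA, 92 of 437 in WT OVA and 290 of 618 UMIs in WT PBS lay in 1 cell, and the top 10% of cells held at least 97.0% in each library. The DJ-1 KO OVA over WT OVA ratio was 0.891 and not called, but 0.299 and called lower with both cells of each shared barcode left out. In migratory dendritic cell-like cells of WT OVA, 309 of 535 Ccl5 UMIs lay in 1 cell.

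Ccl6 was the most abundant member in alveolar macrophage-like cells, followed by neutrophil-like cells. Alveolar macrophage-like cells held 7054 CPM [6948, 7162] in DJ-1 KO OVA, 4626 CPM [4531, 4722] in WT OVA and 3295 CPM [3186, 3407] in WT PBS. The 3 intervals did not overlap, but they cover counting error only, and the share of all genes with separate intervals was not counted. The ratio of DJ-1 KO OVA over WT OVA was 1.53 [1.49, 1.56] and called higher, and that of WT OVA over WT PBS was 1.40 [1.35, 1.46] and not called. Ccl6 was found in 91.2% of these cells in DJ-1 KO OVA, 96.3% in WT OVA and 98.3% in WT PBS. The medians were 21, 40 and 41 Ccl6 UMIs per cell, at median depths of 5959, 10371.5 and 17163 UMIs per cell. The top 10% of cells held 44.9% of Ccl6 UMIs in DJ-1 KO OVA, 28.9% in WT OVA and 33.8% in WT PBS. Depth was uneven within the class too, since 26.3% of its DJ-1 KO OVA cells, those of shared barcodes, held 61.6% of its UMIs. The medians and top shares are therefore not compared between libraries. With both cells of each shared barcode left out the DJ-1 KO OVA over WT OVA ratio was 1.26 and not called, with each cell given the same weight it was 1.18, and after thinning 1.12. In WT OVA over WT PBS the ratio passed the fold limit at 1.54 with median-of-ratios scaling, 1.52 after thinning and 1.52 without the highest cell of each library.

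In neutrophil-like cells Ccl6 stood at 2132 CPM [1949, 2326] in DJ-1 KO OVA, 3012 CPM [2906, 3121] in WT OVA and 1890 CPM [1829, 1952] in WT PBS, highest in WT OVA. It was called higher in WT OVA over WT PBS at 1.59 [1.52, 1.67], where 8.63% of 5794 tested genes were higher, but was 1.44 and not called with median-of-ratios scaling. In DJ-1 KO OVA over WT OVA the ratio was 0.708 [0.643, 0.778] and not called, and 0.594 and called lower with the same scaling. Thus Ccl6 did not follow Ccl3 and Ccl4 in these cells. Ccl6 was found in 73.4% of neutrophil-like cells in DJ-1 KO OVA, 91.7% in WT OVA and 92.6% in WT PBS, or 74.2%, 87.5% and 73.1% after thinning. B cell-like cells held 31.7, 18.3 and 5.72 CPM in DJ-1 KO OVA, WT OVA and WT PBS.

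Ccl9 was found mainly in macrophage-like and monocyte-like cells, with almost no neutrophil signal. Conventional dendritic cell 2-like cells also carried it, with 100 UMIs in 41 WT OVA cells. In DJ-1 KO OVA they held 211 CPM over 37 cells, where 20 of 45 UMIs lay in 1 cell. Alveolar macrophage-like cells held 1439 CPM [1391, 1488] in DJ-1 KO OVA, 415 CPM [387, 445] in WT OVA and 113 CPM [93.6, 135] in WT PBS, and Ccl9 was called higher in both comparisons, at 3.47 [3.21, 3.75] and 3.67 [3.03, 4.49]. Without shared barcodes the 2 ratios were 4.32 and 3.18. The gene was found in 88.5% of these cells in DJ-1 KO OVA, 65.4% in WT OVA and 44.1% in WT PBS, or 65.7%, 29.3% and 10.5% after thinning. Classical monocyte-like cells held 1048 CPM in DJ-1 KO OVA, 828 CPM in WT OVA and 615 CPM in WT PBS, and in WT OVA over WT PBS their ratio was 1.35 [1.17, 1.55] and not called. The main source differed between libraries, with alveolar macrophage-like cells holding 84.0% of Ccl9 UMIs in DJ-1 KO OVA, 45.8% in WT OVA and 10.2% in WT PBS, and classical monocyte-like cells 3.01%, 19.6% and 45.3%. Interstitial macrophage-like cells had the highest level in DJ-1 KO OVA among classes of at least 20 cells, at 2106 CPM against 831 CPM in WT OVA and 446 CPM in WT PBS. Neutrophil-like cells held 55.1 CPM in DJ-1 KO OVA, 12.8 CPM in WT OVA and 15.5 CPM in WT PBS, from 13, 13 and 30 UMIs.

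The alveolar macrophage-like class held a pair of subclusters that took different shares of the libraries. A subcluster led by Mmp12, Ccl24 and Chil3, with Ccl17 and Spp1 among its leading genes, held 250 of 262 cells in DJ-1 KO OVA, 53 of 188 in WT OVA and 6 of 59 cells in WT PBS. The other, led by Ear1, Krt79 and Ear2, held 12, 135 and 53 cells. Within WT OVA the Mmp12 subcluster had Ccl4 at 1916 CPM, Ccl9 at 799.8 CPM and Ccl6 at 5501 CPM, against 535, 278 and 4313 CPM in the Ear1 subcluster.

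Within the Mmp12 subcluster, Ccl9 stood at 1500 CPM in DJ-1 KO OVA and 799.8 CPM in WT OVA, a ratio of 1.88 and called higher, and Ccr1 had a ratio of 1.82 and was called. Ccl6 stood at 7153 CPM in DJ-1 KO OVA and 5501 CPM in WT OVA, a ratio of 1.30 and not called. Ccl4 turned its direction, with 1496 CPM in DJ-1 KO OVA, 1916 CPM in WT OVA and a ratio of 0.781 [0.727, 0.839]. That direction rested on cells of shared barcodes. Without them the Mmp12 subcluster held 187 DJ-1 KO OVA cells and 53 WT OVA cells, with Ccl4 at 2383 CPM in DJ-1 KO OVA and 1916 CPM in WT OVA, a ratio of 1.24 [1.15, 1.34] and not called. The ratios were then 2.29 for Ccl9 and 1.97 for Ccr1, both called higher, 1.08 for Ccl6 and not called, and 0.580 for Ccl5 and called lower. Within the Ear1 subcluster, Ccl4 stood at 535 CPM in WT OVA and 172 CPM in WT PBS, a ratio of 3.11, and Ccl9 at 278 CPM in WT OVA and 126 CPM in WT PBS, a ratio of 2.21, both called higher. Without shared barcodes 47 WT PBS cells were left there, too few to read a ratio. These subclusters come from a clustering at resolution 2, and the ratios within them were added after the class results had been seen.

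**Figure D5:**
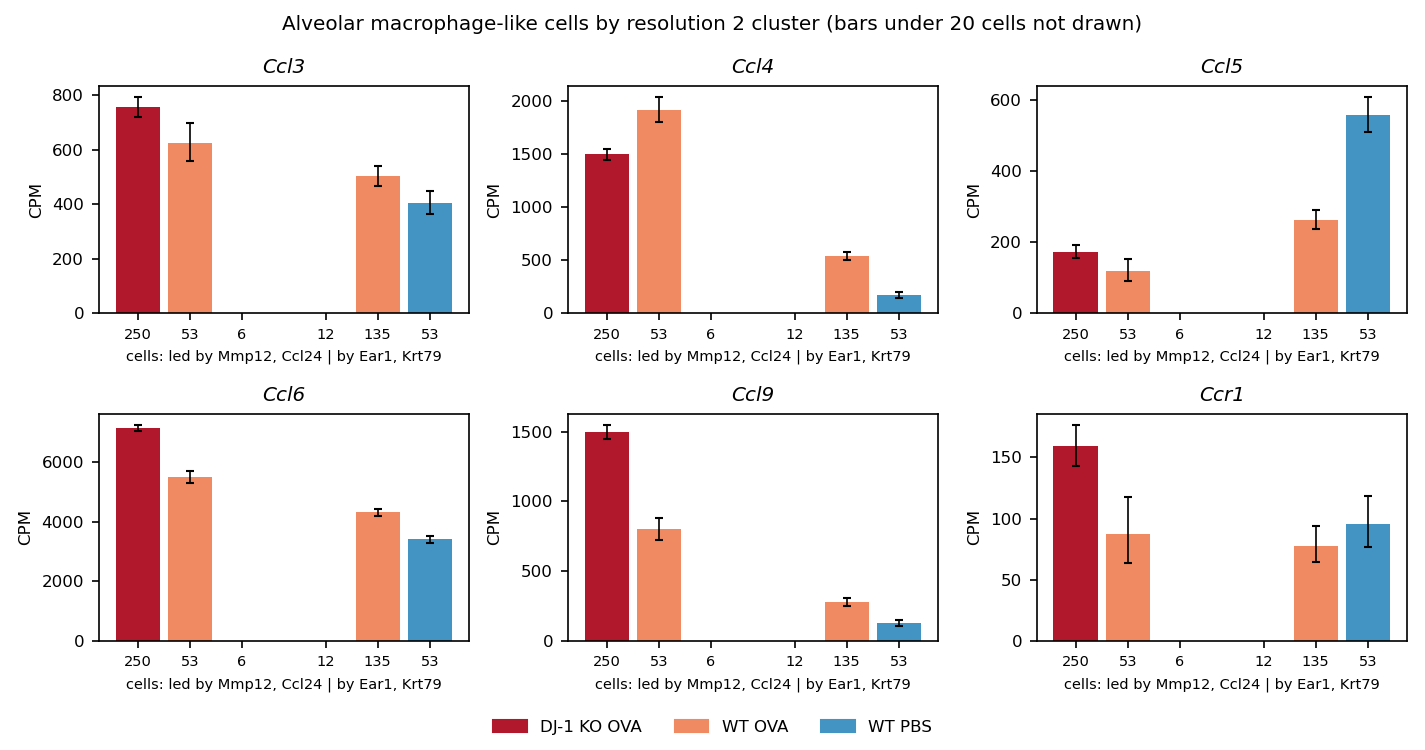
Level of each gene (CPM, bars from 0 with 95% exact Poisson intervals) in the 2 subclusters of alveolar macrophage-like cells, by library, with the number of cells under each bar and no bar under 20 cells. In the subcluster led by Mmp12 and Ccl24, the ratio of DJ-1 KO OVA over WT OVA was 1.88 for Ccl9 and 0.781 for Ccl4, or 2.29 and 1.24 without cells of shared barcodes.

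Ccr1 was carried by the myeloid cells that made Ccl6, at the highest level in neutrophils. Neutrophil-like cells held 695 CPM [593, 809.9] in DJ-1 KO OVA, 562 CPM [517, 610.5] in WT OVA and 636 CPM [601, 673] in WT PBS, with ratios of 1.24 [1.03, 1.47] and 0.884 [0.799, 0.977], neither called. Ccr1 was found in 50%, 55.7% and 80.3% of these cells in DJ-1 KO OVA, WT OVA and WT PBS. After thinning the shares were 51.5%, 42.9% and 45.8%, in another order. Thinning left out a larger part of the DJ-1 KO OVA cells, as counted above for Ccl3, so the thinned share there describes its deeper cells. Neutrophil-like cells held 26.6% of Ccr1 UMIs in DJ-1 KO OVA, 65.1% in WT OVA and 80.6% in WT PBS. Their share of cells stood in the same order, as given above.

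Alveolar macrophage-like cells held 60.4% of Ccr1 UMIs in DJ-1 KO OVA, 17.9% in WT OVA and 6.34% in WT PBS, at 157 CPM [142, 174] in DJ-1 KO OVA, 80.5 CPM [68.4, 94.1] in WT OVA and 92.1 CPM [74.7, 112] in WT PBS. The ratio of DJ-1 KO OVA over WT OVA was 1.95 [1.62, 2.37] and called higher, and 2.14 without shared barcodes, while that of WT OVA over WT PBS was 0.875 [0.675, 1.14]. Non-classical monocyte-like cells had 196 CPM in WT OVA and 171 CPM in WT PBS. Classical monocyte-like cells had 112 CPM in DJ-1 KO OVA, 91.0 CPM in WT OVA and 84.7 CPM in WT PBS, with overlapping intervals. NK cell-like cells, the main Ccl5 source, had Ccr1 in 3 of 300 cells in DJ-1 KO OVA, 0 of 592 in WT OVA and 0 of 466 cells in WT PBS, where the counts of 0 allow levels of up to 2.56 CPM in WT OVA and 1.41 CPM in WT PBS. B cell-like cells held 2.44, 0.763 and 0.954 CPM.

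Ccr3 and Ccrl2 were read beside Ccr1. Ccr3 had 9, 13 and 4 UMIs in the regulatory T cell-like cells of DJ-1 KO OVA, WT OVA and WT PBS. Ccrl2, a receptor-like protein of myeloid cells that does not signal, stood at 1085, 1096 and 1021 CPM in neutrophil-like cells. In alveolar macrophage-like cells Ccrl2 stood at 249.6 CPM in DJ-1 KO OVA, 564 CPM in WT OVA and 481 CPM in WT PBS, lower in DJ-1 KO OVA over WT OVA at 0.443 [0.400, 0.489], and at 0.476 without cells of shared barcodes.

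Pairs of members were counted in the same single cells. Among NK cell-like cells with Ccl3, 73.5% in DJ-1 KO OVA, 75.6% in WT OVA and 84.6% in WT PBS also had Ccl4, against 68.0%, 64.5% and 67.2% of all NK cell-like cells. Among neutrophil-like cells with Ccl3, 35.9%, 22.9% and 24.5% also had Ccl4, against 14.0%, 8.91% and 12.4% of those without Ccl3. In alveolar macrophage-like cells with Ccl3 the share with Ccl4 was 84.3% in DJ-1 KO OVA, 59.7% in WT OVA and 32.3% in WT PBS, against 74.4%, 50% and 20.3% of all cells of the class. Of alveolar macrophage-like cells with Ccl6, 90.4%, 66.3% and 44.8% also had Ccl9 in DJ-1 KO OVA, WT OVA and WT PBS, against 88.5%, 65.4% and 44.1% of all cells of the class. Of neutrophil-like cells with Ccl6, 2.55%, 1.54% and 2.91% had Ccl9, against 2.34%, 1.73% and 2.86% of the whole class. Most cells of both classes had Ccl6, so these shares had to lie near those of the whole class. They do not show whether Ccl6 and Ccl9 go together in single cells. With the same limit, 50.3%, 56.9% and 82.2% of neutrophil-like cells with Ccl6 also had Ccr1 in DJ-1 KO OVA, WT OVA and WT PBS. The shares in all neutrophil-like cells were 50%, 55.7% and 80.3%. Deeper cells show more genes at once, and the libraries differ in depth, so these shares are not compared between libraries.

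Across 43 class and library points from 18 classes, the levels of Ccl3 and Ccl4 went together with a Pearson r of 0.90 on the log2 scale, Ccl6 and Ccr1 with 0.84, and Ccl4 and Ccl9 with 0.81. Ccl5 stood apart from the rest, with r between -0.25 and 0.33. The genes most like each member among 11192 genes were Fcgr3 (r = 0.91) for Ccl3, Ccl3 (0.90) for Ccl4, Nkg7 (0.96) for Ccl5, Clec4n (0.93) for Ccl6, Tifab (0.84) for Ccl9 and Ptafr (0.90) for Ccr1. These points share libraries and depth, and r is a description.

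The wider chemokine and activation lists were read in the same classes. Over all kept cells, 8 of 12 tested other CC ligands were higher and 2 lower in DJ-1 KO OVA over WT OVA, and 8 higher and 1 lower in WT OVA over WT PBS, with medians on the log2 scale of 0.74 and 0.98. The shares over all tested genes were 10.7% higher and 7.22% lower in DJ-1 KO OVA over WT OVA, and 8.36% and 5.95% in the other comparison. Of 12 tested other CC receptors, 1 was higher and 4 lower in each comparison. Of 15 signalling genes downstream of the receptors, 2 were higher and 1 lower in DJ-1 KO OVA over WT OVA, and 0 higher and 1 lower in WT OVA over WT PBS. Without the alveolar macrophage-like cells, 6 of 12 other CC ligands were higher and 2 lower in DJ-1 KO OVA over WT OVA. In alveolar macrophage-like cells 7 of 8 tested other CC ligands were higher and 0 lower in DJ-1 KO OVA over WT OVA, where 9.05% of all tested genes were higher, and 5 of 6 were higher in WT OVA over WT PBS, where 5.94% were. Without cells of shared barcodes the counts were 5 of 6 and 4 of 5. Ccl24, an eosinophil attractant, stood at 2680 CPM in alveolar macrophage-like cells of DJ-1 KO OVA, 48.2 CPM in WT OVA and 0 UMIs in WT PBS, which allows up to 2.85 CPM. Ccl17, which attracts type 2 helper T cells, stood at 1930 CPM in DJ-1 KO OVA, 408 CPM in WT OVA and 0 UMIs in WT PBS. Ccl2, the monocyte attractant, stood at 338 CPM in DJ-1 KO OVA, 78.0 CPM in WT OVA and 47.5 CPM in WT PBS, with a DJ-1 KO OVA over WT OVA ratio of 4.33. With cells of shared barcodes left out, Ccl24 stood at 4289 CPM, Ccl17 at 562 CPM and Ccl2 at 475 CPM in DJ-1 KO OVA. The DJ-1 KO OVA over WT OVA ratio was then 89.0 for Ccl24, 6.10 for Ccl2 and 1.38 for Ccl17, the last not called. Ccl17, Ccl22 and Ccl24 lead or mark the Mmp12 subcluster or other classes and were free to shape the clusters.

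The inflammatory activation list (cytokines, chemokines and NF-kB feedback genes) was counted in neutrophil-like and alveolar macrophage-like cells. For DJ-1 KO OVA against WT OVA, 9 of 13 tested genes were higher and 0 lower in neutrophil-like cells, where 10% of all tested genes were higher and 5.54% lower, with a median log2 ratio of 0.97 beside 0.07 over all genes tested there. Tnf stood at 627 CPM in DJ-1 KO OVA, 189 CPM in WT OVA and 157 CPM in WT PBS, a ratio of 3.32 [2.66, 4.13]. Cxcl3, a neutrophil attractant, stood at 1034, 212 and 161 CPM, a ratio of 4.88 [4.05, 5.89]. Il1b, the gene of interleukin 1 beta, stood at 16904 CPM in DJ-1 KO OVA, 17999 CPM in WT OVA and 15842 CPM in WT PBS and was not called, and neither was Cxcl2 at a ratio of 1.38. In alveolar macrophage-like cells 4 of 14 were higher and 5 lower, where 9.05% of all tested genes were higher and 12.7% lower, with Cxcl1 at a ratio of 2.76 and Ptgs2 at 3.65 against Tnf at 0.511 and Cxcl10 at 0.316. Without cells of shared barcodes 3 were higher and 4 lower, with Cxcl1 at 2.57, Ptgs2 at 5.31, Tnf at 0.540 and Cxcl10 at 0.261. In WT OVA over WT PBS, 8 of 14 were higher in alveolar macrophage-like cells and 5 of 13 in neutrophil-like cells, with 0 lower in both, beside 5.94% and 8.63% of all tested genes higher.

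Immediate early and heat shock genes, which tissue dissociation also raises, were listed beside these results. In NK cell-like cells 6 of 8 tested were higher in WT OVA over WT PBS, where 6.78% of all tested genes were higher, and Ccl4 was higher in the same comparison. Among them were Jun at 1.83 and Fos at 1.57. In DJ-1 KO OVA over WT OVA, 2 of 8 were higher in NK cell-like cells, where 5.55% of all tested genes were, and 1 of 8 was higher and 1 lower in neutrophil-like cells, where 10% and 5.54% were. In cluster 8 of the same comparison 6 of 8 were higher (Fos, Jun, Junb, Egr1, Dusp1 and Hspa1b), where 7.41% of all tested genes were, while Ccl4 was lower. Their part in the chemokine levels was not tested.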

How the data were processed

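Whole lung cells of 3 pooled libraries, 1 per group, were measured by droplet single-cell RNA sequencing with 10x 3′ v3 chemistry. The deposited matrices hold raw UMI counts per gene and cell, made by the authors with Cell Ranger and STAR on mm10, per the submitters' processing notes. Versions and strand use are not given in the sources used here. The lowest barcode had 500 UMIs. From each barcode shared by DJ-1 KO OVA and WT PBS the cell with fewer UMIs was left out, 66 cells of the DJ-1 KO OVA library and 306 of the WT PBS library. Cells with under 200 genes or with over 20% mitochondrial UMIs were dropped, and Scrublet calls at an expected rate of 0.06 were removed. Scanpy 1.11.5 and leidenalg 0.10.2 clustered log-normalised values of 2000 variable genes, members excluded, with 30 components, 15 neighbours and resolution 1, under Python 3.11.15 with NumPy 2.4.6 and SciPy 1.17.1.

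Clusters were named "-like" from 36 marker lists where a list scored at least 1 with at least 3 markers detected in 10% of cells. That gave 27 named classes and left 2103 of 14218 cells unnamed. UMIs were summed per class and library and given as CPM with 95% exact intervals. The calling code was tested on simulated data. With 1 library per group there was no test, and no p-value was computed. The genes named besides the 6 members come from lists of related ligands, receptors, signalling, activation, immediate early and heat shock, and cytotoxic genes. Likeness was Pearson's r of log2(CPM + 1) over class and library points with at least 50 cells. It was read among genes with at least 200 UMIs over the 3 libraries. The members and lists were chosen with earlier results of these data known. Thinning drew 1000 UMIs from each cell and left out shallower cells (1498 of all kept cells). Ratios without the single highest cell, without a class, within subclusters, and of list genes or subclusters without shared-barcode cells were chosen after seeing the data. Gene positions are from RefSeq (GRCm38.p6).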

Additional observations from a re-analysis of the deposited data

How the results depend on the processing

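No paired analysis was possible because each group was 1 library and all carry the same number. Without replicates, depth and 1 library per group limit every difference. Of 4 members called over all kept cells in WT OVA over WT PBS, 2 were called with cells weighted alike, 2 with each cell thinned to 1000 UMIs and 2 without alveolar macrophage-like cells. Of 4 in DJ-1 KO OVA over WT OVA, 2 were called with cells weighted alike. The direction of Ccl6 over all kept cells in DJ-1 KO OVA over WT OVA reversed with cells weighted alike (log2 ratio -0.20), thinned (-0.21) and without alveolar macrophage-like cells (-1.41), and that of Ccl9 without those cells (-0.039). Ccr1 in WT OVA over WT PBS reversed without neutrophil-like cells (0.079), and Ccl4 of alveolar macrophage-like cells in DJ-1 KO OVA over WT OVA reversed within the Mmp12 subcluster (-0.36), but not without the cells of shared barcodes there. In the last 4 cases other or fewer cells were summed, and the cause of the others was not tested. Over all 524 ratios recomputed, 258 of them for called results, 26 calls were lost and 22 gained, and the direction turned in the 6 called cases named above. Some results not called also crossed 1, among them Ccl3 of alveolar macrophage-like cells (0.795, thinned) and Ccr1 over all kept cells (1.93, without neutrophil-like cells) in DJ-1 KO OVA over WT OVA. Under the alternatives applied to a whole class, Ccl5 in DJ-1 KO OVA over WT OVA stayed between 0.517 and 0.578 in NK cell-like cells (0.637 and 0.551 in their subclusters) and between 0.423 and 0.534 in cluster 8, and Ccl3 in neutrophil-like cells between 3.41 and 4.66.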
